A study of Mus musculus with 6 samples.

Results

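The genes described here are the collagen chains of the mouse, chosen by their symbol (Col, a type number, the letter a and a chain number), together with 11 enzymes and chaperones that modify, fold or crosslink collagen. They comprise 55 genes, 44 of them collagens, among the 21368 genes for which a probe could be named. Of the collagens, 11 form fibrils, 9 belong to basement membranes and their anchors, and 24 fall in other classes. A total of 47 members (36 collagens and all 11 enzymes) were bright enough to be tested among the 18385 genes tested, the limit being detection over background by a probe on 3 arrays or more, of either genotype. The other 8 are described by their detection.

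The series profiled melanocyte stem cells, the pigment cell reserve of the hair follicle, sorted from the skin of male mice as cells with green fluorescence and low side scatter. One genotype was wild type (WT, 3 arrays) and the other K14-SCF Tg (3 arrays), a transgenic mouse in which the keratin 14 promoter, active in basal keratinocytes, drives the KIT ligand SCF (stem cell factor). Cells of both genotypes passed the same fluorescence gate, and the labels used here do not say what drives the fluorescent protein. The replicates carry numbers and nothing in the labels says that they are separate animals, so the spread behind each p-value may be technical, and 3 arrays a genotype limit the precision.

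Levels are background-subtracted signals divided by the 75th percentile of their array, on the log2 scale, so that 0 is the level of a probe at that percentile. Log2 fold changes are Tg minus WT, with their standard errors (SE). Between 78.4% and 87.2% of the 55681 probes exceeded background clearly on each array, 0 were saturated, and between 44 and 48 of the 55 members did so. Of 12 melanocyte markers, 11 were above background on every array and Oca2 on none. Dct stood at 5.78 ± 0.26 in WT and 5.88 ± 0.19 in Tg (SD, n = 3) and Mlana at 6.06 ± 0.18 and 6.12 ± 0.14 (SD, n = 3). Slc45a2 (-1.72 in WT) and Gpr143 (-3.2 in WT) were much dimmer. Detection alone does not mark the cell type: 9 of 10 keratinocyte and 8 of 8 pericyte and smooth muscle markers were above background on every WT array. The keratinocyte marker Trp63, at 6.93 in WT, was brighter than any melanocyte marker. Of the 11 melanocyte markers tested, 6 had negative and 5 positive log2 fold changes. Ednrb, the endothelin receptor of the lineage, stood lowest at -0.65 (SE 0.21, limma adjusted p = 0.823) without overlap of the genotypes, and Kit stood at -0.46 (SE 0.28). The summed signal of the melanocyte markers, in multiples of the 75th percentile, spanned 280 to 369 in WT and 269 to 323 in Tg. In sorted pools of this kind, fewer cells of a type and less RNA per cell cannot be told apart.

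Collagens are secreted triple helices. Fibrillar collagens such as types I, III and V assemble into the cables of the dermis, type IV chains form the sheet of basement membranes, and other types coat fibrils, form beaded filaments or span the cell membrane. Inside the cell, prolyl and lysyl hydroxylases modify the chains and the chaperone Serpinh1 escorts them. Outside, lysyl oxidases oxidise lysines so that neighbouring molecules become covalently crosslinked. In skin, dermal fibroblasts are the main source of types I and III, while melanocyte stem cells sit against the basement membrane of the follicle and lie near type IV, type VII and type XVII collagen made largely by keratinocytes.

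Promoter sequences are shown for 5 members, picked for their values: 3 fibrillar chains with negative log2 fold changes, 1 fibrillar chain with a positive value, and the enzyme with the widest difference at its brightest probe. They cover the 250 bases before the annotated start, are taken from RefSeq (assembly GRCm38.p6), and are written 5′ to 3′ on the gene's strand, with capitals marking 3 motifs searched on both strands. The motifs are the pentamer CCAAT, the GC box hexamer GGGCGG, capitalised as its reverse complement where it lies on the opposite strand, and the TATA box hexamer TATAAA. Col1a2 lies at chr6:4505368-4505617 (+ strand), Col3a1 at chr1:45311288-45311537 (+), Col5a1 at chr2:27886175-27886424 (+), Col11a2 at chr17:34038888-34039137 (+) and Loxl4 at chr19:42612807-42613056 (- strand).
Col1a2: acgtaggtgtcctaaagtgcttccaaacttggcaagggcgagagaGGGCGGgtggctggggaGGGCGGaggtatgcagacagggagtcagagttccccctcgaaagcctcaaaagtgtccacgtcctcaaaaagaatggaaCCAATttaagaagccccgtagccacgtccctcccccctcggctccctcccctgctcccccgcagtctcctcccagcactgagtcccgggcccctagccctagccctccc
Col3a1: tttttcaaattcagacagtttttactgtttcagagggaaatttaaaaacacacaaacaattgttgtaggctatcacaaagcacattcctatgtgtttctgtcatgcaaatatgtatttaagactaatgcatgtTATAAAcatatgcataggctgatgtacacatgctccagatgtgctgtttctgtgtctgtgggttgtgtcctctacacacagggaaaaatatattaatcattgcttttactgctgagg
Col5a1: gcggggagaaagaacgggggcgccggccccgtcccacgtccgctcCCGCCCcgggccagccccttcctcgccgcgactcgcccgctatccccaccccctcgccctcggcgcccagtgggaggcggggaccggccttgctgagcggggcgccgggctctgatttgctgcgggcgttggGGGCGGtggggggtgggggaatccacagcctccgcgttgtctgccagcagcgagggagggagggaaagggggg
Col11a2: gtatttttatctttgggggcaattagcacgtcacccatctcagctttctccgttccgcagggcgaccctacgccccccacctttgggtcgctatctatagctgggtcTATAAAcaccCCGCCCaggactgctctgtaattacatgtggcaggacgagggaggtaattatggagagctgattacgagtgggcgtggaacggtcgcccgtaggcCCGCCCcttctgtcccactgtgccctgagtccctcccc
Loxl4: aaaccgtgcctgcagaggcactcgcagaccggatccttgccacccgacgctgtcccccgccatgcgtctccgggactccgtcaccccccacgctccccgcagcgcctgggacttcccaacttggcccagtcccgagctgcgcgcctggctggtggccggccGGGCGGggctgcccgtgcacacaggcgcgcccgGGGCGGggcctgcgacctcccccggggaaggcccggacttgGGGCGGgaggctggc

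The Col1a2 window holds GGGCGG beginning 205 and 188 bases before the start and CCAAT at 109, whereas the Col3a1 window holds 1 match, TATAAA at 117. Col5a1 has GGGCGG on the opposite strand at 205 and on its own strand at 73, and Col11a2 has TATAAA at 143 with opposite-strand GGGCGG at 133 and 38. The Loxl4 window has GGGCGG at 89, 56 and 15 bases. No matches overlap one another. Member windows on 1 chromosome were left out, whereas the count over all windows kept every chromosome. The member set held 41 members with 44 windows of 300 bases, of which the 250 bases before the start were searched. In that stretch GGGCGG occurs for 61.4% of these windows and for 32.7% of all 32851 windows. The shares were 31.8% and 33.8% for CCAAT, and 13.6% and 12.4% for TATAAA. The 3 fibrillar chains with negative values thus share no single motif of these 3, since the Col3a1 stretch printed has a TATA box hexamer alone. A match is a string of letters and shows no binding.

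Comparing K14-SCF Tg with WT asks whether collagen expression of the sorted cells differs when stem cell factor is supplied by the epidermis. No member passed the test across all genes (limma, 0 higher and 0 lower, smallest adjusted p = 0.612 for Col5a2), where 0.00544% of all tested genes were called higher and 0% lower. At an unadjusted p under 0.05 there were 4 members with positive log2 fold changes (Col5a2, Col11a2, Col18a1 and Loxl4) and 6 with negative ones (Col1a1, Col1a2, Col3a1, Col5a1, Col6a2 and Col12a1), 21.3% of the 47 tested. Over all tested genes the shares were 2.84% positive and 2.56% negative. The 3 WT and 3 Tg values did not overlap for 5 members higher in Tg (Col5a2, Col11a2, Col18a1, Loxl1 and Loxl4) and 6 lower (Col1a2, Col3a1, Col5a1, Col6a2, Col12a1 and Col16a1), 23.4% of the 47, against 5.12% higher and 5.41% lower over all genes. With no filter on dim probes, all 55 members gave 4 positive and 8 negative at an unadjusted p under 0.05, or 21.8%, where all genes of that fit gave 5.17%. These counts rest on few arrays: the 6 negative became 3 without WT replicate 1, 3 without Tg replicate 2 and 2 without Tg replicate 3, the 4 positive became 2 without Tg replicate 2 or Tg replicate 3, and the 5 without overlap higher in Tg became 12 without WT replicate 2 and 10 without Tg replicate 3. The share of members at an unadjusted p under 0.05, in either direction, was 14.9% without WT replicate 1 (all genes 5.34%), 10.6% without Tg replicate 2 (all genes 4.82%) and 8.51% without Tg replicate 3 (all genes 5.08%), the last close to the background.

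**Figure D1:**
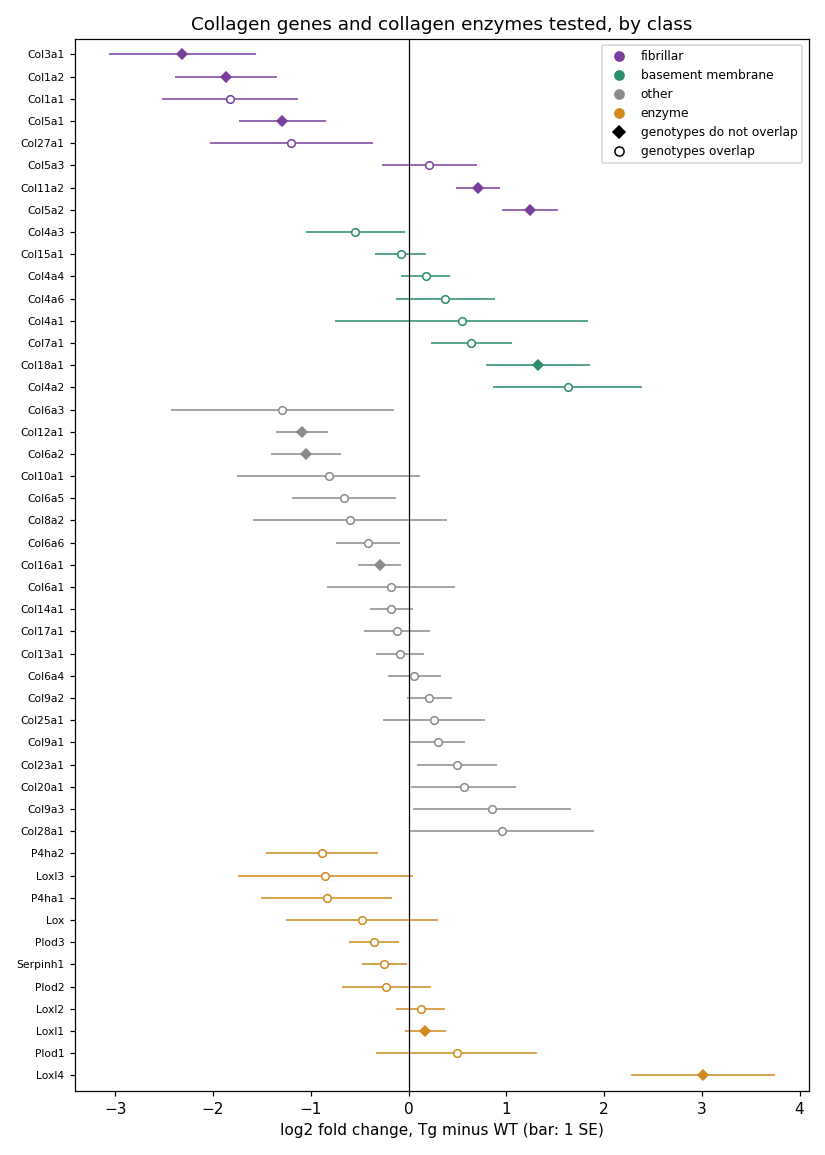
Log2 fold change (Tg minus WT, x axis) of the 47 tested members, grouped by class from fibrillar at the top to enzymes at the bottom, with bars of 1 SE; filled diamonds mark members whose 3 WT and 3 Tg values do not overlap. Fibrillar chains run from -2.31 (Col3a1) to 1.24 (Col5a2), and the widest value among the enzymes is 3.01 (Loxl4, whose other probe gave -0.31).

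Class medians are given as a description, without a test of the difference between classes. Among the 8 tested fibrillar chains the median log2 fold change was -1.24, with 5 negative and 3 positive. Among the 8 tested basement membrane collagens it was 0.46, with 2 negative and 6 positive. The 20 other collagens had a median of -0.15 (12 negative, 8 positive) and the 11 enzymes -0.25 (7 negative, 4 positive), beside -0.01 over all genes tested (9450 negative, 8935 positive). The fibrillar median over all 11 chains, dim probes included, was -0.32, and the basement membrane median was 0.13 without WT replicate 1 and 0.04 when the probes of a gene were averaged.

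On single arrays, the median deviation of the fibrillar chains from their 6-array means was 0.97, 0.50 and -0.23 on WT replicates 1 to 3 and 0.06, -0.34 and -0.40 on Tg replicates 1 to 3. WT replicate 3 therefore lay below Tg replicate 1, and the genotypes overlapped on this measure. The basement membrane chains gave -0.62, 0.23 and -0.24 in WT and 0.33, 0.49 and 0.12 in Tg, again with overlap, as WT replicate 2 exceeded Tg replicate 3. The other collagens gave 0.05, 0.07 and 0.03 in WT and -0.05, -0.24 and -0.14 in Tg, a small shift without overlap. The enzymes gave -0.05, 0.06 and 0.02 in WT and 0.09, -0.02 and -0.09 in Tg, where the genotypes were interleaved.

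**Figure D2:**
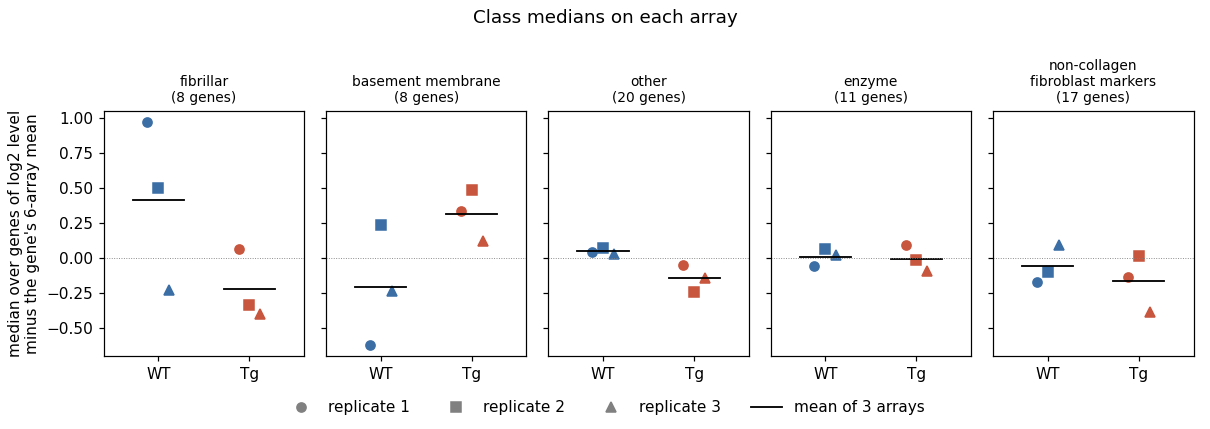
For each array, the median over genes of the log2 level minus the gene's 6-array mean (y axis), for the 4 member classes and for 17 fibroblast markers that are no collagens; symbols give the replicate, bars the mean of 3 arrays. The fibrillar points spread from 0.97 on WT replicate 1 to -0.40 on Tg replicate 3 and overlap between genotypes, while the enzymes lie between -0.09 and 0.09.

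Type I collagen is the main fibril of skin and bone, a helix of Col1a1 and Col1a2 chains. Col1a2 stood at 5.13, 4.66 and 3.71 on WT replicates 1 to 3 and at 3.45, 2.12 and 2.32 on Tg replicates 1 to 3. Every WT array was above every Tg array, with a log2 fold change of -1.87 (SE 0.52, 3.65-fold in size, limma adjusted p = 0.719). Col1a1 stood at 4.01, 3.36 and 2.33 in WT and at 2.60, 1.21 and 0.41 in Tg. Here WT replicate 3 lay under Tg replicate 1, and the log2 fold change was -1.83 (SE 0.69, limma adjusted p = 0.892). Within an array the difference of Col1a1 from Col1a2 moved by 0.04 between genotypes (exact 2-sided permutation p = 1, smallest possible 0.1), a difference within the spread of either genotype.

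Col3a1, the homotrimeric chain of the fine fibrils that accompany type I, stood at 3.88, 2.99 and 1.96 in WT and at 1.77, 0.75 and -0.62 in Tg. The lowest WT array was just above the highest Tg array, and the log2 fold change of -2.31 (SE 0.76, 4.97-fold in size, limma adjusted p = 0.839) was the most negative among the members tested. WT replicate 1, the highest array for Col1a1, Col1a2 and Col3a1, lay alone on its slide. Within the slide that held the other 5 arrays, which equals a fit with slide as a block, the log2 fold changes were -1.44 for Col1a1, -1.55 for Col1a2 and -1.85 for Col3a1.

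Type V collagen nucleates fibrils and limits their width, and none of its chains passed the test. Col5a1 stood at 1.65, 0.60 and 1.62 in WT and at -0.61, 0.57 and 0.04 in Tg, a narrow separation between WT replicate 2 and Tg replicate 2, with a log2 fold change of -1.29 (SE 0.44, limma adjusted p = 0.863). Col5a2 was dim, at -5.89, -6.19 and -6.58 in WT, where 2 of 3 arrays were above background, and at -4.97, -4.72 and -5.25 in Tg. All Tg arrays were the higher ones, with a log2 fold change of 1.24 (SE 0.29, limma adjusted p = 0.612), which became 0.29 with another background correction (normexp). Col5a3 stood at 1.11, -0.43 and -0.46 in WT and at 0.33, 0.54 and -0.01 in Tg, with the Tg arrays inside the WT range and a log2 fold change of 0.21 (SE 0.49). The difference of Col5a1 from Col5a2 within an array moved by -2.53 log2 units from WT to Tg. This value is a description without a test, since the separation of each chain already fixes that of their difference, and it rests on the dim Col5a2. The difference of Col5a1 from Col5a3 moved by -1.503 with no overlap (exact 2-sided permutation p = 0.1, the smallest 3 against 3 can give, adjusted 0.55 over the 11 pairs compared). Col3a1 and Col5a2 are neighbours on chromosome 1, at -2.31 and 1.24.

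Col11a2, a chain of type XI collagen best known from cartilage fibrils, stood at -1.33, -1.30 and -1.49 in WT and at -0.87, -0.69 and -0.42 in Tg. The genotypes were separated by more than the range within WT, with a log2 fold change of 0.71 (SE 0.23, limma adjusted p = 0.826). Col27a1, a fibrillar chain of developing cartilage, had a log2 fold change of -1.20 (SE 0.83) with overlapping genotypes. The remaining fibrillar chains were below the filter: Col11a1 was above background on 0 arrays, Col24a1 on 1 of 3 in each genotype, and Col2a1, the cartilage fibril chain, on 1 Tg array. For Col2a1 the measured means were -8.14 in WT and -7.44 in Tg, where 1 of 3 arrays measured it. The higher Tg mean rests on Tg replicate 3 (-5.24), as Tg replicates 1 and 2 stood at -8.35 and -8.72, so no fold is given.

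**Figure D3:**
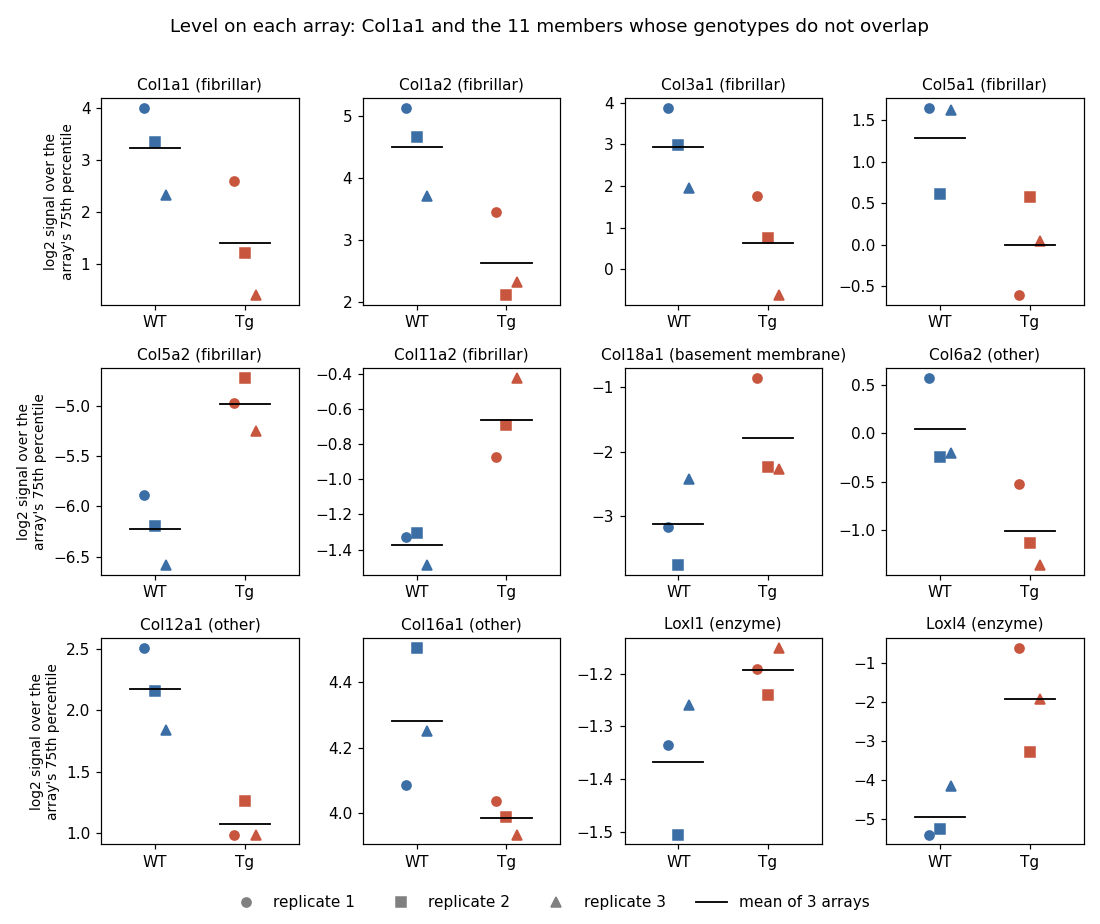
Level on each of the 6 arrays (y axis, log2 signal over the array's 75th percentile, own scale in each panel) for Col1a1 and the 11 members whose genotypes do not overlap; symbols give the replicate and bars the mean of 3 arrays. Col1a2 runs from 5.13 on WT replicate 1 to 2.12 on Tg replicate 2, Loxl4 from -5.41 to -0.60, and for Loxl1 and Col16a1 the gap between genotypes is small.

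Of the basement membrane chains, Col4a1 and Col4a2 form the type IV helix found in nearly all basement membranes and start 21 bases apart on opposite strands of chromosome 8, so that their windows of 300 bases share 78. Col4a1 stood at -4.19, -1.61 and -0.08 in WT and at -0.18, -0.71 and -3.37 in Tg. Its log2 fold change of 0.54 (SE 1.29) was smaller than its SE, and it was -0.57 without WT replicate 1 and -0.08 without Tg replicate 1. Col4a2 stood at -3.68, -0.97 and -2.25 in WT and at -0.32, -0.15 and -1.54 in Tg, where WT replicate 2 fell among the Tg arrays. Its log2 fold change was 1.63 (SE 0.76, limma adjusted p = 0.931) and 0.94 within the shared slide. The within-array difference of Col4a1 from Col4a2 moved by -1.08 between genotypes (exact 2-sided permutation p = 0.5, adjusted 0.786).

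Col4a3, Col4a4 and Col4a6, chains of specialised basement membranes, had log2 fold changes of -0.55 (SE 0.50), 0.17 (SE 0.25) and 0.38 (SE 0.50), with overlapping genotypes in each case. Other tested probes had the opposite sign, at -0.58 (SE 0.24, lower in Tg without overlap) and -0.96 (SE 0.60) for Col4a4 and -1.64 (SE 1.86) for Col4a6. Col4a5, the X-linked partner of Col4a6, was detected over background on a single WT array and on no Tg array. Its measured means were -6.41 in WT and -8.16 in Tg, 3.38-fold lower in Tg. This fold rests on the 1 WT array that measured it. It is no lower bound, since the WT mean includes arrays not above background.

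Col7a1 forms the anchoring fibrils below the epidermal basement membrane. It stood at -0.29, 0.79 and 0.20 in WT and at 1.06, 1.32 and 0.26 in Tg, overlapping, with a log2 fold change of 0.64 (SE 0.42), which was 0.38 without WT replicate 1 and 0.42 without Tg replicate 2. Col15a1 and Col18a1 are related proteoglycan collagens of basement membranes, the latter being the source of endostatin. Col18a1 stood at -3.16, -3.75 and -2.43 in WT and at -0.86, -2.24 and -2.26 in Tg. The separation was narrow, between WT replicate 3 and Tg replicate 3, and the log2 fold change was 1.33 (SE 0.53, limma adjusted p = 0.914), with 0.80 (SE 0.43) at its other probe and 0.86 without Tg replicate 1. Col15a1 stood at -2.07, -1.78 and -2.44 in WT and at -2.32, -2.20 and -2.02 in Tg, interleaved, with a log2 fold change of -0.08 (SE 0.26). Its other tested probes gave -1.39 (SE 0.77) and -0.54 (SE 0.90), and the mean of the 3 probes -0.67.

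The other collagens included the beaded filaments of type VI, which link cells to the matrix. Col6a2 stood at 0.57, -0.24 and -0.21 in WT and at -0.53, -1.13 and -1.36 in Tg, without overlap and with a log2 fold change of -1.04 (SE 0.36, limma adjusted p = 0.861), or -0.78 within the shared slide. Its partner and neighbour on chromosome 10, Col6a1, stood at -0.39, -2.74 and -1.93 in WT and at -1.85, -2.43 and -1.32 in Tg, all Tg arrays inside the WT range. The log2 fold change of Col6a1 was -0.18 (SE 0.65), and it was 0.47 without WT replicate 1 and 0.10 without Tg replicate 2. The difference of Col6a1 from Col6a2 moved by 0.87 (exact 2-sided permutation p = 0.3, adjusted 0.786). Col6a3, the third chain of the classical helix, was above background on 2 of 3 arrays in each genotype, at -1.29 (SE 1.14). Over the 7 beaded filament chains tested, 5 were negative and 2 positive, with a median of -0.42.

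**Figure D4:**
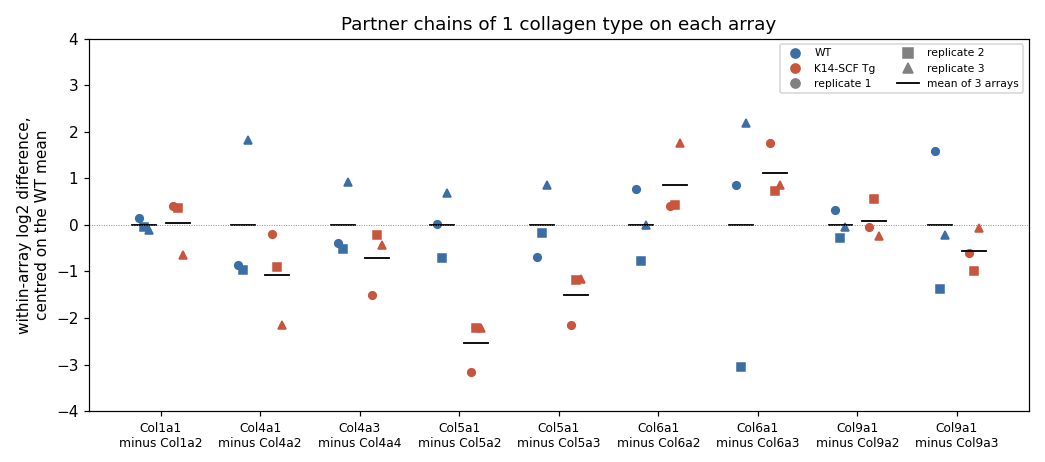
Within-array log2 difference between 2 chains of the same collagen type (y axis, centred on the WT mean of each pair), for 9 pairs; colour gives the genotype, symbols the replicate and bars the mean of 3 arrays. Type V pairs lie lower in Tg without overlap, shifted by -2.53 (Col5a1 minus Col5a2) and -1.503 (Col5a1 minus Col5a3), the former fixed by the separation of each chain alone, whereas Col1a1 minus Col1a2 moves by 0.04.

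Fibril-associated collagens decorate the surface of fibrils. Col12a1, which binds type I fibrils in dense tissue, stood at 2.51, 2.16 and 1.84 in WT and at 0.99, 1.27 and 0.99 in Tg. All WT arrays were clearly the higher ones, with a log2 fold change of -1.09 (SE 0.26, 2.13-fold in size, limma adjusted p = 0.645) and -0.92 within the shared slide. Col16a1, found with fibrillin networks in skin, stood at 4.09, 4.50 and 4.25 in WT and at 4.04, 3.99 and 3.93 in Tg. The gap between WT replicate 1 and Tg replicate 1 was small, the log2 fold change was -0.29 (SE 0.22), and 1 of its 2 other probes had the opposite sign (0.16, SE 0.32). Col14a1 (-0.18), Col9a1 (0.30), Col9a2 (0.21), Col9a3 (0.85) and Col20a1 (0.57) overlapped between genotypes, and Col19a1 and Col22a1 were above background on no array. The other tested probe had the opposite sign for Col9a1 (-0.049, SE 0.28) and Col20a1 (-1.835, SE 0.94).

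Among transmembrane collagens, Col17a1 is the hemidesmosome collagen known for its role in keeping hair follicle stem cells and melanocyte stem cells in place. It stood at -0.998, -1.43 and -0.73 in WT and at -1.16, -0.71 and -1.63 in Tg. The genotypes were interleaved, with a log2 fold change of -0.12 (SE 0.34). Col13a1 (-0.08), Col23a1 (0.50) and Col25a1 (0.26) likewise overlapped. Other tested probes of Col25a1 were negative, at -0.85 (SE 0.75), -1.44 (SE 0.41, lower in Tg without overlap) and -1.635 (SE 1.06). Those of Col23a1 gave 0.14 (SE 0.58) and -0.89 (SE 1.31). Among short chain network collagens, Col10a1 (-0.82, SE 0.94) and Col8a2 (-0.60, SE 0.99) had SEs larger than their values. Col8a1, made by vessel walls among other sites, was detected over background on 2 of 3 WT arrays and on no Tg array. Its measured means were -5.70 in WT and -8.41 in Tg, and the fold was 6.34, lower in Tg. This is no lower bound, since the WT mean includes WT replicate 3 at -7.95, which was not above background. Col26a1 was above background on 1 Tg array alone and is given no fold.

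The enzymes that act inside the cell showed overlapping genotypes throughout. Serpinh1, the collagen chaperone HSP47, stood at 1.54, 1.87 and 2.04 in WT and at 1.47, 1.63 and 1.599 in Tg, with a log2 fold change of -0.25 (SE 0.23). P4ha1 and P4ha2 are the catalytic subunits of prolyl 4-hydroxylase, which stabilises the helix. P4ha1 stood at -1.95, -1.30 and 0.15 in WT and at -1.87, -2.68 and -1.05 in Tg (-0.83, SE 0.67), with 0.56 (SE 0.32) at its other probe, -0.14 for the mean of both probes and -0.24 without WT replicate 3. P4ha2 stood at -3.28, -1.20 and -1.60 in WT and at -3.05, -3.08 and -2.60 in Tg (-0.88, SE 0.57). Within the shared slide, without WT replicate 1, P4ha2 stood at -1.51 (limma unadjusted p = 0.00442, adjusted 0.585), and without WT replicate 2 at -0.47. For both subunits, WT replicate 1 was the lowest WT array and lay among or below the Tg arrays. P4hb, their common partner subunit, was steady at 3.11 ± 0.24 in WT and 3.08 ± 0.11 in Tg (SD, n = 3), and neither subunit's difference from it separated the genotypes (exact 2-sided permutation p = 0.5 and 0.4).

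Lysyl hydroxylases prepare lysines for sugars and crosslinks. Plod1 stood at 2.46, 0.79 and 0.18 in WT and at 2.80, 1.71 and 0.41 in Tg, a wide range shared by both genotypes, with a log2 fold change of 0.49 (SE 0.82). Plod2, whose product forms stable crosslinks in fibrotic tissue, stood at -0.01, -0.84 and -1.51 in WT and at -0.62, -0.92 and -1.50 in Tg (-0.23, SE 0.46). Plod3 stood at 3.36, 3.03 and 3.15 in WT and at 2.57, 2.76 and 3.16 in Tg, where Tg replicate 3 was level with WT (-0.35, SE 0.26).

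Lysyl oxidases start crosslinking outside the cell. Lox was dim, at -3.60, -4.56 and -6.36 in WT and at -4.53, -5.93 and -5.49 in Tg, overlapping, with a log2 fold change of -0.48 (SE 0.77) and 0.21 (SE 1.17) at its other probe. Loxl1, which also acts on elastin, stood at -1.34, -1.51 and -1.26 in WT and at -1.19, -1.24 and -1.15 in Tg. The genotypes did not overlap, yet the log2 fold change was only 0.17 (SE 0.21, limma adjusted p = 0.988). Loxl2 stood at 1.28, 1.90 and 1.45 in WT and at 1.62, 1.81 and 1.57 in Tg, inside the WT range (0.12, SE 0.25). Its other probes gave 1.21 (SE 0.53) without overlap and 0.66 (SE 0.36) with overlapping genotypes, and the mean of the 3 probes 0.67. Loxl3 stood at -1.08, -2.12 and -1.92 in WT and at -1.88, -1.23 and -4.55 in Tg. The negative value of Loxl3 (-0.85, SE 0.90) rests on Tg replicate 3, without which it was 0.15.

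Loxl4, a lysyl oxidase of the same subgroup as Loxl2 and Loxl3, had the widest log2 fold change among the members tested, at 1 of its 2 probes. It stood at -5.41, -5.26 and -4.15 in WT and at -0.60, -3.27 and -1.92 in Tg, above background on all 6 arrays, with a log2 fold change of 3.01 (SE 0.74, 8.06-fold in size, limma adjusted p = 0.646). All Tg arrays were the higher ones, and they spread more widely than the WT arrays (SD 1.34 against 0.69). The WT levels of Loxl4 were dim, and its log2 fold change became 1.93 with normexp. Its other probe gave -2.78, -4.69 and -3.15 in WT and -2.27, -3.88 and -5.38 in Tg. That probe did not separate the genotypes (-0.31, SE 0.90), and the mean of both probes gave 1.35. The other probe was the brighter one on every WT array and the dimmer one on every Tg array. The probe used was thus the brightest over the 6 arrays only through its Tg values, and the rank and fold of Loxl4 depend on that choice. In all, 14 members had at least 2 tested probes and 10 of these disagreed in sign between probes. Col1a1, Col1a2, Col3a1, Col5a1, Col5a2, Col11a2, Col6a2 and Col12a1 have 1 probe each, so no other probe bears on them.

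A list of 39 other genes of collagen assembly and turnover (hydroxylase partners, propeptide proteases, binding proteoglycans, receptors and degrading enzymes) had 37 tested. Their median log2 fold change was -0.06, with 20 negative and 17 positive, 0 called, and 1 in each direction at an unadjusted p under 0.05 (limma). This is 5.41% of the list, the same as the 5.41% of all genes, and 13.5% had no overlap against 10.5% of all genes, so the values below are descriptions of single genes. Adamts2, the protease that removes the amino propeptide of fibrillar procollagens, stood at -0.71, -0.58 and -0.56 in WT and at -3.22, -3.63 and -2.28 in Tg. This was a separation far wider than the WT spread, at -2.42 (SE 0.38, limma adjusted p = 0.434), while its other probe gave -0.54 (SE 0.75). Itga2, a subunit of the collagen receptor integrin of platelets and epithelia, stood at -5.95, -5.18 and -7.55 in WT, where 2 of 3 arrays were above background, and at -2.48, -4.60 and -2.56 in Tg. All Tg arrays were above all WT arrays, at 3.01 (SE 0.83, limma adjusted p = 0.706). Without overlap were also Sparc, a collagen-binding glycoprotein (-0.89, SE 0.43, with -1.24 and -0.09 at its other probes), Fkbp14, a prolyl isomerase of the endoplasmic reticulum (0.40, SE 0.22), and Itga10, another collagen receptor subunit (0.66, SE 0.27).

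Markers of other cell types were read beside these values, since fibrillar collagens are abundant in dermal fibroblasts. The summed signal of the 8 tested fibrillar chains was 71.5, 46.4 and 26.2 on WT replicates 1 to 3 and 22.9, 11.96 and 9.83 on Tg replicates 1 to 3. Every WT array was the higher one, though WT replicate 3 and Tg replicate 1 were close. Col1a2 alone made up 36.2% to 54.4% of that sum, and the other fibrillar chains summed to 13.1 to 36.6 in WT and 4.82 to 11.98 in Tg. A sum follows the brightest chains, whereas the fibrillar medians on single arrays overlapped between genotypes. The 17 fibroblast markers that are not collagens summed to 8.36 to 9.47 in WT and 6.66 to 8.41 in Tg, which overlap slightly, with 15 above background on every WT array and 16 on every Tg array. Without Thy1, the brightest of them, the sums were 6.03 to 6.75 and 5.85 to 7.67. Of these markers, 8 were negative and 9 positive, with a median log2 fold change of 0.17. Thy1, a surface glycoprotein of fibroblasts and other cells, was the 1 at an unadjusted p under 0.05 (-1.69, SE 0.34, limma adjusted p = 0.564), and Pdgfra, the defining fibroblast receptor, stood at -5.99 ± 1.38 in WT and -4.73 ± 1.46 in Tg (SD, n = 3). Lum stood at -1.73 (SE 0.91), Dcn at -0.72 (SE 0.61) and Fap at 2.19 (SE 0.91), values of both signs. Their part in the fibrillar collagen values was not tested.

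Endothelial markers (10 genes) summed to 3.20 to 6.57 in WT and 3.30 to 4.49 in Tg, with a median of -0.43, and pericyte and smooth muscle markers (8 genes) to 4.74 to 6.44 and 5.61 to 9.10, with a median of 0.11. Within these lists, Rgs5, a pericyte gene, stood at -3.82 (SE 1.51, limma unadjusted p = 0.0452, adjusted 0.902), detected over background on 3 WT arrays and 1 Tg array with overlapping values, and Egfl7, an endothelial gene, at -2.03 (SE 0.95). Rgs5 and Egfl7 were the most negative of their lists, and both lists held both signs. Pericyte and smooth muscle markers were 4 negative and 4 positive, up to 1.07 (Des). Endothelial markers were 7 negative and 3 positive, up to 1.48 (Tie1). Rgs5 and Egfl7 have the sign of Col1a1, Col1a2 and Col3a1, and their part in those values was not tested. Keratinocyte markers (10 genes), a possible source of type VII and XVII collagen, summed to 116 to 147 and 134 to 144, with a median of -0.15. Trp63 alone made up 87.9% to 96.3% of that sum, and the other 9 genes summed to 6.22 to 16.3 in WT and 4.91 to 12.1 in Tg. Schwann cell markers (8 genes) summed to 50.4 to 70.8 and 70.7 to 72.7 (median 0.20), and leukocyte markers (9 genes) to 1.6 to 5.75 and 1.68 to 3.20 (median 0.14). The ranges of both genotypes overlapped for each of these lists.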

How the data were processed

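RNA of sorted cells was amplified, labelled with Cy3 and hybridised to 6 Agilent arrays of 1 colour. Per the file headers, the intensity values are processed signals, background-subtracted and not normalized between arrays, read with Agilent Feature Extraction 10.7.1.1, which the submitters' processing notes also name, and the probe design refers to build mm9. The spot flags (other than intensities) are 0 or 1 values, used as deposited. The value table the authors deposited is a linear ratio, the processed signal over 1 constant per array, whose definition no source here gives; it served as an alternative.

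Control and outlier spots were left out, and log2 of the processed signal was taken over each array's 75th percentile. The fit covered 47730 probes detected over background on 3 arrays or more of the 6. Genes were named through RefSeq accessions (28331 of 29786 matched, assembly GRCm38.p6), each by its brightest probe. Genotypes were compared with limma 3.58.1 in R 4.3.3 (2-sided, no covariates, 4 residual and 1.91 prior degrees of freedom), p-values adjusted by Benjamini-Hochberg across every probe in the fit, and calls made under 0.05. Chain pairs were compared by exact permutation. The steps were also tested on simulated data. A fold against a genotype below background takes, per array of that genotype, the higher of the lowest signal above background and the probe's own. The mean of the other genotype includes its arrays not above background, so such a fold is no strict bound.

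Members, lists and the rule for named genes were chosen with earlier results of these data known. The rule takes the main fibrillar, basement membrane, filament and skin collagens, all enzymes, members whose genotypes do not overlap, and in each class the 2 members with the smallest p; further members are named for completeness. Alternatives covered normalization, filters, background correction, probe choice, variance model, slide, slide row, replicate number and single arrays.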

Additional observations from a re-analysis of the deposited data

How the results depend on the processing

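Across 17 alternatives, 6 of them leaving out 1 array, no named member was called by limma, and 18 of the 27 named members kept their sign. Many of the 17 could not turn a sign. The variance model, filters on dim probes, slide row and replicate block left the log2 fold changes of the named members they covered unchanged. The deposited values are the same signals over 1 constant per array, and slide as a block equals leaving out WT replicate 1. Centring on medians gave -0.23 for the other collagens and -0.33 for the enzymes, beside -0.10 over all genes. No filter on dim probes gave -0.32 for fibrillar chains, and normexp left 2 members positive at an unadjusted p under 0.05. Averaging probes gave 0.044 for basement membrane chains and -0.14 for enzymes. With slide as a block, 3 members were negative at that p, basement membrane chains stood at 0.13 and enzymes at -0.0075, and signs turned for Col4a1 (-0.57), Col6a1 (0.47), Plod2 (0.16), Lox (0.15) and Loxl2 (-0.0075). Leaving out single arrays gave 2 to 6 negative and 2 to 4 positive members, 5 to 12 without overlap higher in Tg, medians of 0.13 to 0.68 (basement membrane), -0.20 to 0.00070 (other) and -0.27 to 0.020 (enzymes), and ranges that cross 0 for Col4a1 (-0.57 to 1.52), Col6a1 (-0.71 to 0.47), Col15a1 (-0.25 to 0.078), Col17a1 (-0.34 to 0.11), Plod1 (-0.086 to 1.15), Plod2 (-0.59 to 0.16), Lox (-1.24 to 0.15), Loxl2 (-0.0075 to 0.30) and Loxl3 (-1.51 to 0.15). The cause of these shifts was not tested. Over all tested probes, same-numbered replicates deviated together little (correlations 0.02, 0.05 and 0.13). This cannot settle whether the numbers pair samples, and Col1a1 and Col3a1 fell from replicate 1 to replicate 3 in both genotypes. The replicate block gave 3 positive and 5 negative members and the fibrillar median of -1.24, and changed no call. With it, limma unadjusted p was 0.000819 for Col3a1 (0.0226 without) and 0.0755 for Col5a1 (0.0276 without). The adjusted values in that fit were 0.726 and 0.785. Dim members such as Col5a2, Lox and, in WT, Loxl4 are limited by signal over background.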
